A study of Mus musculus with 6 samples.

Results

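The genes described here encode the core of the PI3K and Akt pathway. They are the adaptors Irs1 and Irs2, the PI3K regulatory subunit Pik3r1, the PI3K catalytic subunits Pik3ca and Pik3cb, the kinase Pdpk1 and the kinases Akt1 and Akt2. They were chosen by name for their place in the pathway, not by a measured value, but with earlier results of these data known. They are 8 of the 47069 genes listed in a table of RNA-seq counts. All 8 were found and all 8 passed the filter on low counts, which left 14165 genes for testing.

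In this pathway, a receptor tyrosine kinase such as the insulin or IGF receptor phosphorylates an IRS adaptor, which binds the regulatory subunit of PI3K and brings its catalytic subunit to the membrane. The catalytic subunit makes a phosphoinositide lipid that recruits Akt, and Pdpk1 and the mTORC2 complex then phosphorylate Akt. Akt acts on regulators of growth, glucose use and survival, and in muscle the pathway is known for its part in myoblast differentiation and in fiber growth. Its activity is set mainly by phosphorylation, which RNA-seq does not measure, so the values below describe transcript levels only.

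The cells were muscle stem cells of mdx mice, which lack dystrophin and model Duchenne muscular dystrophy, and both groups carried the mdx mutation. The study sorted them as positive for Itga7 and Itgb1 and negative for Sca-1, CD45, CD31 and CD11b, and cultured them as myoblasts. Its methods describe a growth medium with serum and FGF2 and a low-serum medium for differentiation. They do not say which medium the sequenced cells were in, so the growth factors present are not known. One group received PSB-KD107 at 10 μM, a synthetic agonist of the receptor Gpr18, and the other received vehicle. The labels' treatment protocol names PSB-KD107 and vehicle, but another label calls the compound PSB-KD-1 and the design text calls the controls untreated, so whether the controls received solvent rests on the protocol and the study's methods. The labels give 2 days of treatment, whereas the study's methods describe an overnight exposure. There were 3 libraries per group, numbered 1, 2 and 4 in the count table and 1, 2 and 3 in the sample records. The libraries numbered 4 were assigned to a group by their names and were not matched to a sample record. The study's methods say that the cells came from 3 mice but do not tie a library to a mouse, so the p-values measure the spread between these libraries, which may be partly technical. The study's methods describe male mdx mice of the C57BL/10 strain, all of one age, for its animal experiments, and do not say separately which mice gave the cells.

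The libraries held 30917613 to 48756794 counts, and 3 counts, the floor used here, corresponded to 0.0596 to 0.0962 CPM (a gene's counts scaled to the TMM-normalized library total). Markers of myoblasts summed to 8169.9 to 8428 CPM in the vehicle libraries and to 7940.2 to 8279.8 CPM in the PSB-KD107 libraries. Markers of differentiated muscle, mostly the embryonic myosin gene Myh3, were abundant in both groups and summed to 27268 to 30652 CPM with vehicle and 21518 to 25498 CPM with PSB-KD107, with no overlap. Of the 8 myoblast markers, 5 were lower and 3 higher with PSB-KD107. The groups did not overlap for 1 of them, where they did not overlap for 15.8% of all genes tested. That marker, Pax7, the transcription factor of muscle stem cells, was 49.9 to 68.8 CPM with vehicle and 26.8 to 35.1 CPM with PSB-KD107. Of the 5 differentiated muscle markers measured, Myh3 and Myog were lower without overlap, as were 6.59% of all genes tested. Ckm, Acta1 and Tnnt3 overlapped, with log2 fold changes of 0.33, 0.0070 and 0.0073. Ckm was 287 to 425 CPM with vehicle and 222, 281 and 818 CPM in PSB-KD107 libraries 1, 2 and 4. Acta1 was 5019 to 7211 CPM with vehicle and 4572, 4726 and 8895 CPM in those PSB-KD107 libraries. For both, PSB-KD107 library 4 was above the vehicle range and the other treated libraries were below it. The Tnnt3 value of PSB-KD107 library 4 lay within the vehicle range. DESeq2 called Myh3 (adjusted p = 0.0306) and Pax7 (adjusted p = 0.0018) lower with PSB-KD107, and edgeR called neither. Over all genes to which DESeq2 gave an adjusted p, 0.719% were called lower. With 1 library left out in turn, DESeq2 called Pax7 in 5 of 6 fits (not without vehicle library 4, adjusted p = 0.0576) and Myh3 in 2 of 6, without PSB-KD107 library 2 or 4. The part of these marker differences in the values of the core genes was not tested, and in bulk RNA fewer cells of a type and less RNA per cell cannot be told apart. Marker lists of fibroblasts, endothelial cells, leukocytes, pericytes and Schwann cells each summed to at most 13.7 CPM in any library. All 4 fibroblast markers tested were higher with PSB-KD107, each with overlapping groups. Of these, Ly6a, which encodes Sca-1, was 8.36 CPM in PSB-KD107 library 4 and 0.155 to 1.29 CPM in the other libraries. Its bearing on other values of PSB-KD107 library 4 was not tested. Gpr18 itself had 0 counts in all 6 libraries, which allows a level up to the floor of 3 counts.

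None of the core genes passed the test for a difference between PSB-KD107 and vehicle. By the quasi-likelihood test of edgeR, adjusted after Benjamini and Hochberg across the table, 0 of 8 were called at an adjusted p under 0.05, where 0% of the genes tested were called. At an unadjusted p under 0.05, 1 of 8 (Irs2) passed and was higher with PSB-KD107, against 9.4% of all genes tested, of which 6.47% were higher and 2.93% lower. DESeq2, which called 2.98% of the genes to which it gave an adjusted p (2.26% higher and 0.719% lower), also called 0 of 8. The core genes were split evenly, with 4 higher and 4 lower (49.9% of all genes tested were higher), and their median absolute log2 fold change was 0.17, against 0.20 over all genes tested. The groups did not overlap in 1 of 8 core genes, again Irs2, against 15.8% of all genes tested (9.2% higher and 6.59% lower).

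The promoters of the IRS adaptor genes are shown because Irs2 was the only core gene whose groups did not overlap, and because these 2 genes were the only core genes with a CACGTG E-box in the 250 bases before their RefSeq start. The windows are on GRCm38.p6, at chr8:11008930-11009179 for Irs2 and chr1:82291440-82291689 for Irs1, both on the minus strand. Capitals mark the E-box, which began 44 bases before the RefSeq start of Irs2 and 115 bases before that of Irs1. On GENCODE, used for the gene coordinates below, Irs2 begins at 11008458 and Irs1 at 82291416. The E-boxes thus lie farther upstream of those starts.
Irs2: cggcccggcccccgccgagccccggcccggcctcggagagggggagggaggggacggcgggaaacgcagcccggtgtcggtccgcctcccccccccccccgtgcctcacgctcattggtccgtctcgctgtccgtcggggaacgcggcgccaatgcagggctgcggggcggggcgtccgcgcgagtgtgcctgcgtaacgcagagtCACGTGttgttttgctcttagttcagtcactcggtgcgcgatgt
Irs1: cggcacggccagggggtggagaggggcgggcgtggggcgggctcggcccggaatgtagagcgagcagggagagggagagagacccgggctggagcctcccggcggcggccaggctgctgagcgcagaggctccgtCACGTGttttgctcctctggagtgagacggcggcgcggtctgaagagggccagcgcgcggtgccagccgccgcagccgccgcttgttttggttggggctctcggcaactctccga
The E-box is its own reverse complement. It was in 2 of the 14 windows of the core genes, some of which have more than 1 window, and in 6.02% of the 32851 mouse promoter windows of this length. Both windows were rich in G and C, with 72.8% for Irs2 and 72.4% for Irs1 against a median of 52.4% over all windows. The forkhead motif TGTTTAC was found on either strand in 1 window of Akt1 and in 3.17% of all windows. The CRE motif TGACGTCA was in none of the core genes' windows and in 1.55% of all windows. The sterol response element TCACNCCAC, where N is any base, was also in none of them and in 1.05% of all windows. These matches describe letters only and do not show that a factor binds there.

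Irs2 (GRCm38 chr8:10984681-11008458) encodes an adaptor that links insulin and IGF receptors to PI3K. It had 144, 235 and 158 counts in vehicle libraries 1, 2 and 4, whereas PSB-KD107 libraries 1, 2 and 4 had 456, 335 and 265 counts. These are 3.67, 6.73 and 4.90 CPM with vehicle and 9.06, 10.7 and 7.29 CPM with PSB-KD107. Every PSB-KD107 library was thus above every vehicle library, although the lowest treated value was close to the highest vehicle value. The mean level was 5.10 ± 1.54 CPM with vehicle and 9.03 ± 1.73 CPM with PSB-KD107 (SD, n = 3), a 1.77-fold difference with a 95% interval of 1.09 to 2.87. The log2 fold change was 0.82 (SE 0.29) and did not pass adjustment in edgeR (adjusted p = 0.461) or in DESeq2 (adjusted p = 0.164). An exact two-sided permutation test gave p = 0.1, the smallest value that 3 against 3 libraries can reach. Irs2 was also the lowest of the core genes, so its counts carry more relative counting error than those of the others. Its spread between replicate libraries was nonetheless close to that of Irs1 (pooled within-group SD of the log2 CPM 0.37 and 0.36).

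Irs1 (GRCm38 chr1:82233101-82291416), the more abundant adaptor of the pair, was 73.0, 54.3 and 45.2 CPM in vehicle libraries 1, 2 and 4. It was 67.6, 55.1 and 91.1 CPM in the PSB-KD107 libraries, and the groups overlapped. The log2 fold change was 0.31 (SE 0.25, adjusted p = 0.743 in edgeR), and it was 0.093 without PSB-KD107 library 4, the highest of the 6. On the annotation, both adaptor genes overlap a gene on the opposite strand, and these partners had 20 counts beside Irs1 and 4 counts beside Irs2 over all libraries. Whether the counting used strand is not given in the sources used here.

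**Figure D1:**
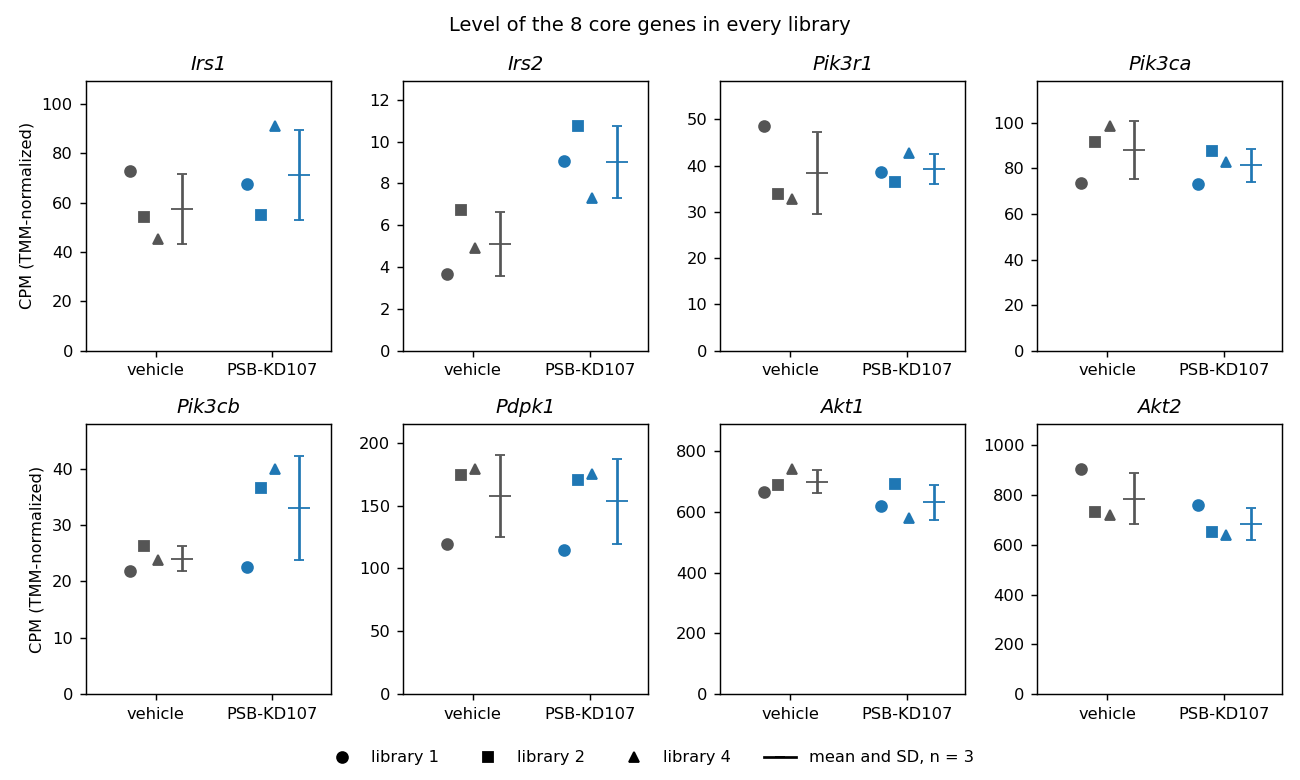
Each panel plots one core gene in TMM-normalized CPM, from 0, in the vehicle and PSB-KD107 libraries. Points are libraries, with one symbol per library number, and the bar beside them is the mean and SD of 3 libraries. The groups overlap in every panel except that of Irs2, where the vehicle libraries reach 6.73 CPM and the PSB-KD107 libraries start at 7.29 CPM.

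Pik3r1 (GRCm38 chr13:101680563-101768217) encodes a regulatory subunit that stabilizes the catalytic subunit and docks it on phosphorylated adaptors. Its level was 48.6, 34.0 and 32.8 CPM in vehicle libraries 1, 2 and 4 and 38.5, 36.5 and 42.8 CPM in the PSB-KD107 libraries. The treated libraries lay within the range of the vehicle libraries. The log2 fold change of 0.032 (SE 0.18, adjusted p = 0.968 in edgeR) turned to between -0.072 and -0.036 when vehicle library 2, vehicle library 4 or PSB-KD107 library 4 was left out, so no direction is given.

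Pik3ca (GRCm38 chr3:32397671-32468486) encodes the alpha catalytic subunit, which serves growth factor receptors. It was 73.8, 91.4 and 98.6 CPM in the vehicle libraries and 73.3, 87.7 and 82.8 CPM in the PSB-KD107 libraries. Both libraries numbered 1 were the lowest of their group, and the log2 fold change was -0.11 (SE 0.14, adjusted p = 0.831 in edgeR). Pik3cb (GRCm38 chr9:99036654-99140621) encodes the beta catalytic subunit, which can also respond to G protein-coupled receptors. It was 21.9, 26.4 and 23.9 CPM with vehicle and 22.6, 36.6 and 39.9 CPM with PSB-KD107. PSB-KD107 libraries 2 and 4 stood above all vehicle libraries, whereas PSB-KD107 library 1 lay among them. The log2 fold change was 0.46 (SE 0.23, adjusted p = 0.615 in edgeR), with group means of 24.04 ± 2.25 and 33.05 ± 9.18 CPM (SD, n = 3). Without PSB-KD107 library 1, DESeq2 called Pik3cb higher with PSB-KD107, at a log2 fold change of 0.66 (adjusted p = 0.0124), and called 1.92% of genes in all.

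Pdpk1 (GRCm38 chr17:24073680-24150924) encodes the kinase that phosphorylates the activation loop of Akt. It was 119.8, 174 and 179 CPM in vehicle libraries 1, 2 and 4 and 114, 171 and 175 CPM in the PSB-KD107 libraries. The low value of the library numbered 1 appeared in both groups, and the groups overlapped. The log2 fold change was -0.040 (SE 0.23, adjusted p = 0.968 in edgeR) and became 0.029, 0.060 and 0.12 without vehicle library 2, vehicle library 4 and PSB-KD107 library 1.

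Akt1 (GRCm38 chr12:112653821-112674884) and Akt2 (GRCm38 chr7:27591552-27640826) encode the kinases at the end of this core. Akt1 is known for growth and survival signals and Akt2 for insulin-stimulated glucose uptake. Akt1 was 667, 689.5 and 741 CPM in vehicle libraries 1, 2 and 4 and 620.2, 693 and 581 CPM in the PSB-KD107 libraries. Akt2 was 904, 732 and 719 CPM with vehicle and 759, 653 and 640.2 CPM with PSB-KD107. For both genes 2 of 3 treated libraries were below every vehicle library and the remaining one was not, so the groups overlapped. For Akt1 the 95% interval of the fold ran from 0.747 to 1.09 (adjusted p = 0.730 in edgeR). For Akt2 it ran from 0.689 to 1.102 (adjusted p = 0.707 in edgeR). The highest Akt2 value of each group was that of the library numbered 1.

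The intervals show how large a difference these libraries could have hidden. A 2-fold difference, 1 on the log2 scale, lay outside the 95% interval for Irs1, Pik3r1, Pik3ca, Pdpk1, Akt1 and Akt2. It lay inside for Irs2, whose interval reached 1.52 on the log2 scale, and for Pik3cb, whose interval reached 1.01. These intervals are not adjusted for the number of genes tested.

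**Figure D2:**
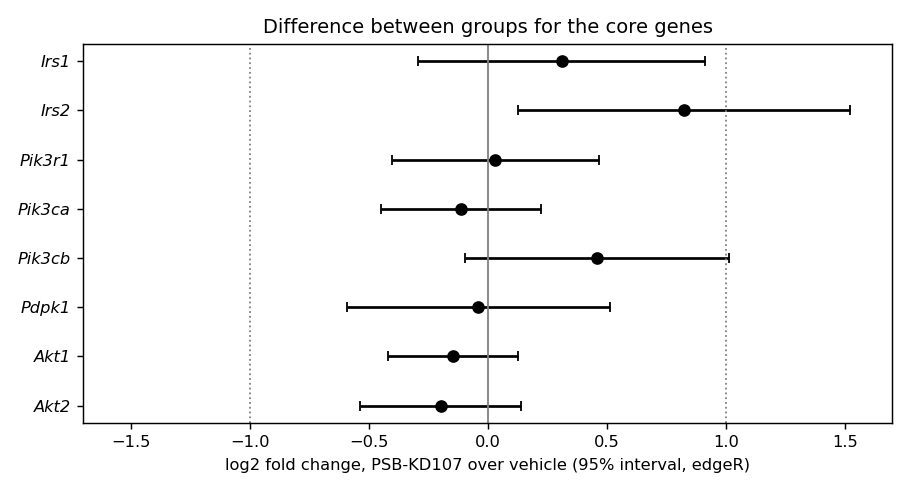
Points are the log2 fold changes of the core genes for PSB-KD107 over vehicle, bars are their 95% intervals from edgeR with 3 libraries per group, and dotted lines mark a 2-fold difference. The interval of Irs2 alone lies wholly above 0, from 0.13 to 1.52, and it did not pass adjustment over all genes.

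The core genes differed widely in level. Per kilobase of exon and averaged over the 6 libraries, Akt1 was at 162 and Akt2 at 103 CPM per kb, levels at the 98.3rd and 97.1st percentiles of the genes tested. Pdpk1 followed at 14.2, Pik3ca at 9.31 and Irs1 at 7.04 CPM per kb. Pik3cb at 3.97, Pik3r1 at 3.86 and Irs2 at 1.12 CPM per kb were the lowest, and Irs2 was at the 25.5th percentile. The ranges over the libraries were separate for Akt1 and Akt2, for Akt2 and Pdpk1 and for Pik3r1 and Irs2. The ranges of the other neighbors in this order overlapped, and Pik3cb was above Pik3r1 in only 4 of 6 libraries. Lengths were the total exon length of each gene on the annotation, so a gene that mostly uses a short transcript would be understated.

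The spread between replicates also differed between the genes. The pooled within-group SD of the log2 CPM was 0.11 for Akt1, at the 18.6th percentile of the 8910 genes with a mean of at least 10 CPM. It was 0.16 for Akt2, 0.18 for Pik3ca and 0.24 for Pik3r1. The adaptors had the highest values of the core genes, 0.36 for Irs1 and 0.37 for Irs2, but Pdpk1 and Pik3cb were close, at 0.33 each. The median over the genes with a mean of at least 10 CPM was 0.20. Irs2 had a lower mean and was not among those genes.

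Within the PI3K and IRS families, the share of each member was computed from the CPM per kb. The share of Pik3ca among the catalytic subunits was 62.5%, 66.3% and 71.2% in vehicle libraries 1, 2 and 4 and 61.2%, 59.8% and 57.2% in the PSB-KD107 libraries. Every treated library was below every vehicle library, by 7.24 percentage points on average. The share of Pik3cb was 23.4%, 24.2% and 21.8% with vehicle and 23.9%, 31.5% and 34.9% with PSB-KD107. The exact two-sided permutation test of the Pik3ca share gave p = 0.1, the smallest possible here, and 0.25 after Benjamini-Hochberg adjustment over 5 such tests of shares and ratios. Neither catalytic subunit was called by itself.

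Among the regulatory subunits, Pik3r1 was a small part, 7.19% to 10.0% with vehicle and 9.51% to 10.6% with PSB-KD107, and Pik3r2 and Pik3r3 made up the rest. Pik3r3 was 105.8, 98.6 and 92.8 CPM with vehicle and 80.7, 83.3 and 61.8 CPM with PSB-KD107, with no overlap (log2 fold change -0.40, adjusted p = 0.461 in edgeR). The summed level of regulatory subunits over that of catalytic subunits was 3.69, 2.88 and 2.97 in the vehicle libraries and 2.78, 2.36 and 2.51 in the PSB-KD107 libraries. The groups did not overlap, with means of 3.18 ± 0.446 and 2.55 ± 0.213 (SD, n = 3), and the two-sided exact permutation test gave p = 0.1 and an adjusted p of 0.25. This depends on the lengths used, and on raw counts the difference had p = 0.3 in the same exact permutation test. Irs1 held 84.8% to 93.2% of the IRS transcripts with vehicle and 78.0% to 89.6% with PSB-KD107, with overlapping groups, and Irs4 had 0 counts in all libraries.

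**Figure D3:**
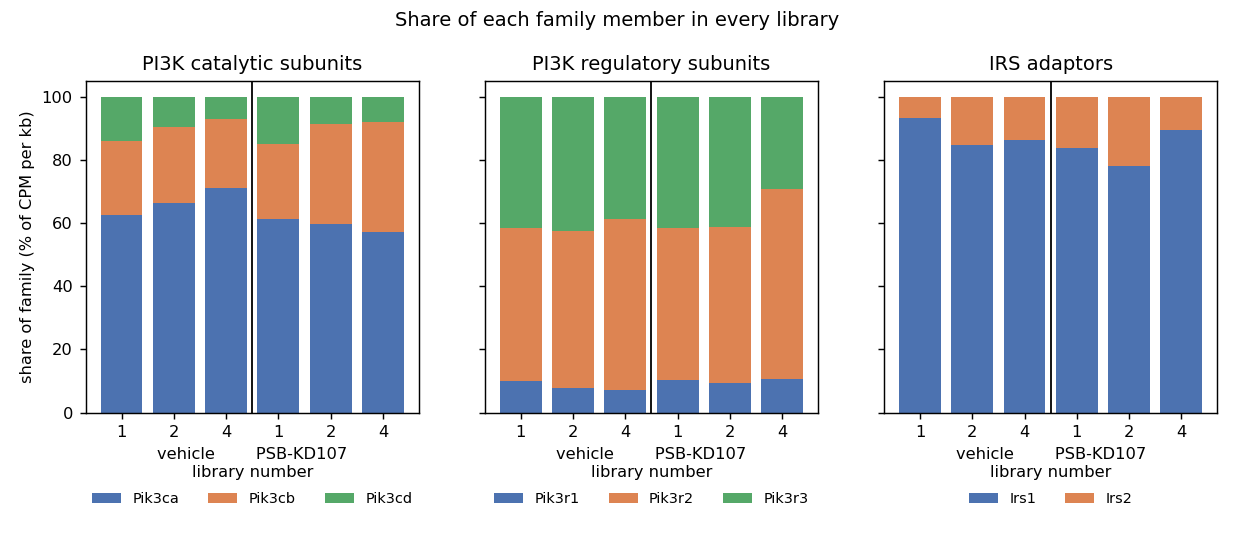
Bars give, for each library, the percent of the summed CPM per kb of a family held by each member, with vehicle libraries to the left of the line in each panel and PSB-KD107 libraries to the right. The Pik3ca part is at least 62.5% in the vehicle libraries and at most 61.2% in the PSB-KD107 libraries, while the Irs1 part overlaps between groups.

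Around this core, 91 other genes of the pathway were listed by role, and 80 of them passed the filter on low counts. Of these 80, 45 were higher and 35 lower with PSB-KD107, with a median log2 fold change of 0.02. edgeR called 0 of them at an adjusted p under 0.05 and 9 (11.3%) passed at an unadjusted p under 0.05, against 9.4% of all genes tested. DESeq2 called 3 (3.75%, against 2.98% of all genes), with Trib3 and Pik3r5 higher and Erbb2 lower. The groups did not overlap for 13 of the 80 genes (16.3%), a share close to the 15.8% of all genes tested.

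Of the receptors, 12 of 14 were tested, with 4 higher and 8 lower. Erbb2, a receptor of the EGF receptor family, was 223, 246 and 260.5 CPM with vehicle and 152, 183 and 148 CPM with PSB-KD107. All treated libraries were lower (log2 fold change -0.59, adjusted p = 0.231 in edgeR and 0.0066 in DESeq2). DESeq2 no longer called Erbb2 without vehicle library 2 (adjusted p = 0.143), vehicle library 4 (0.138) or PSB-KD107 library 1 (0.0755). Insr, the insulin receptor, was 64.6, 73.8 and 72.7 CPM with vehicle and 76.2, 92.4 and 98.2 CPM with PSB-KD107, with no overlap (log2 fold change 0.34, adjusted p = 0.486 in edgeR). Igf1r, the IGF receptor, had a log2 fold change of -0.21, which moved between -0.47 and -0.090 without PSB-KD107 library 2 or 1. Fgfr4, a receptor of fibroblast growth factors, had one of -0.94 (adjusted p = 0.609 in edgeR), which was -0.60 without PSB-KD107 library 4 and -1.52 without PSB-KD107 library 2. Of the other adaptors, 11 of 14 were tested, with 6 higher and 5 lower, and no pair of groups was separate. The adaptors with the smallest p-values were Shc1, Grb14 and Crk, with log2 fold changes of 0.30, 1.50 and 0.19. Without PSB-KD107 library 4 these were 0.19, 0.11 and 0.066, and Grb14 was 1.89, 0.898 and 8.23 CPM in PSB-KD107 libraries 1, 2 and 4 against 1.17 to 1.40 CPM with vehicle.

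Of the other PI3K subunits, 8 of 12 were tested, with 4 higher and 4 lower. Pik3r5, a regulatory subunit of the PI3K gamma class that is known mainly from leukocytes, had 1, 7 and 3 counts in vehicle libraries 1, 2 and 4 whereas PSB-KD107 libraries 1, 2 and 4 had 39, 19 and 23. The groups did not overlap, but edgeR did not call it (adjusted p = 0.281, DESeq2 0.0310) and its level was low in both groups. With 1 library left out, DESeq2 called it without vehicle library 2 alone, did not call it in 4 of the 6 fits, and gave no adjusted p without PSB-KD107 library 4. Its catalytic partner Pik3cg had 1 to 3 counts per library. The leukocyte markers, whose summed level was 2.30 to 4.82 CPM with vehicle and 0.660 to 6.56 CPM with PSB-KD107, overlapped between groups. Of the 2 leukocyte markers tested, Cd68 had a log2 fold change of 1.82 and Itgam one of -1.05, each with overlapping groups. Pik3r2 and Pik3c2b had log2 fold changes of -0.20 and -0.29, and Pik3r2 moved between -0.35 and -0.13 without PSB-KD107 library 4 or 1.

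Of the lipid phosphatases that oppose PI3K, 7 of 8 were tested, with 4 higher and 3 lower. Inpp4a and Inppl1 had log2 fold changes of 0.34 and -0.28, which were 0.12 and -0.13 without PSB-KD107 library 1.

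Of the Akt-related kinases and mTORC2 components, 12 of 13 were tested, with 6 higher and 6 lower. Sgk1, a kinase related to Akt that also depends on Pdpk1, was 28.01, 31.9 and 27.3 CPM with vehicle and 42.8, 37.9 and 36.5 CPM with PSB-KD107. Prr5, an mTORC2 component, was 18.1, 12.1 and 11.3 CPM with vehicle and 9.60, 8.72 and 5.89 CPM with PSB-KD107. Neither gene's groups overlapped, and neither was called (log2 fold changes 0.43 and -0.77, adjusted p = 0.360 and 0.469 in edgeR). Sgk3, another kinase of this kind, had 38, 22 and 15 counts with vehicle and 38, 28 and 123 with PSB-KD107, with overlapping groups (log2 fold change 1.28, adjusted p = 0.626 in edgeR). Only PSB-KD107 library 4 was high, and without it the log2 fold change was 0.25.

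All 13 genes that restrain Akt or PI3K were tested, with 9 higher and 4 lower. Trib3, a pseudokinase described as binding Akt and blocking its phosphorylation, was 4.44, 2.49 and 2.57 CPM with vehicle and 56.4, 36.6 and 34.8 CPM with PSB-KD107, and DESeq2 called it (adjusted p = 1.2e-24), also with any 1 library left out. In edgeR its log2 fold change was 3.75 with a 95% interval of 2.93 to 4.56 (adjusted p = 0.0738), and no gene in the table had a smaller adjusted p. Pik3ip1, an inhibitor of the PI3K catalytic subunit, was 5.36, 5.30 and 4.002 CPM with vehicle and 4.07, 2.92 and 15.5 CPM with PSB-KD107, with PSB-KD107 library 4 alone above the vehicle range. Its log2 fold change was 0.62 and became -0.48 without that library and 0.99 without PSB-KD107 library 2. Phlpp1, a phosphatase that acts on Akt, had a log2 fold change of -0.66, and Trib1, a relative of Trib3, one of 0.70, which was 0.24 without PSB-KD107 library 4.

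All 17 Akt substrates were tested, with 12 higher and 5 lower and a median log2 fold change of 0.14. Gsk3b, a kinase that Akt inhibits, was 110.2, 128 and 128 CPM with vehicle and 138, 166 and 169 CPM with PSB-KD107. Every treated library was higher, and edgeR did not call it (log2 fold change 0.37, adjusted p = 0.415). Foxo3, a transcription factor that Akt keeps out of the nucleus, had a log2 fold change of 0.48, and Tbc1d4, a regulator of glucose transporter traffic, one of 1.57. Both depended on PSB-KD107 library 4, without which they were 0.14 and 0.89.

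**Figure D4:**
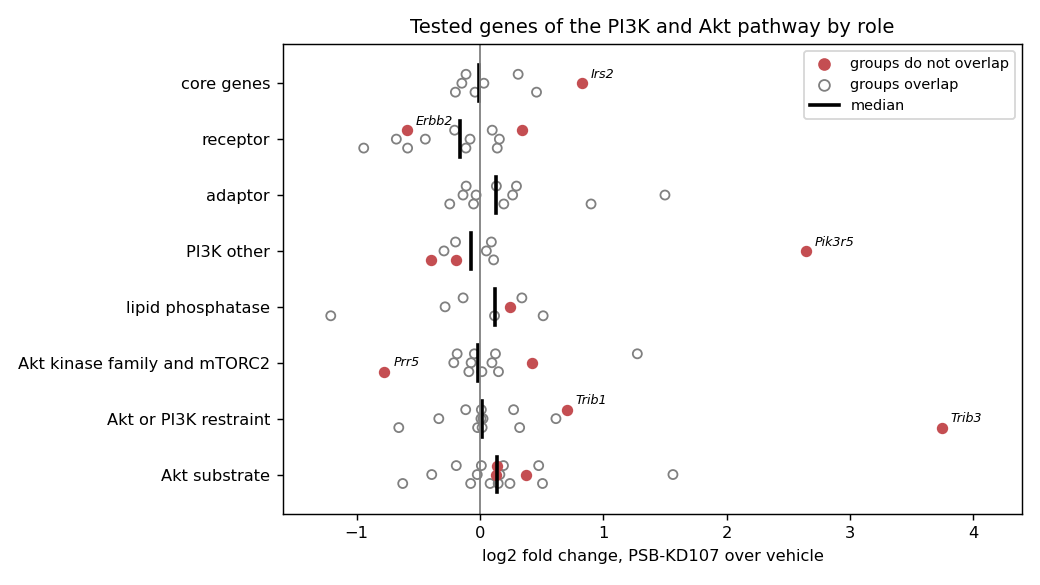
Each point is the log2 fold change of one tested gene for PSB-KD107 over vehicle, arranged by its role in the pathway, with filled points where the 3 libraries of each group do not overlap and a black line at the median of each role. The core genes center on 0 with Irs2 alone filled, and Trib3 at 3.75 and Pik3r5 stand farthest to the right.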

How the data were processed

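RNA of mdx myoblasts given PSB-KD107 or vehicle was measured by poly(A) RNA-seq with a directional kit. The authors aligned the reads with STAR to the mouse genome (mm10 per the labels) and deposited raw counts per gene, not normalized. The counting program, annotation and strand setting are not given in the sources used here, so counts of overlapping genes and near-identical copies are uncertain. Names, coordinates and exon lengths came from GENCODE M21 (GRCm38) and promoters from RefSeq (GRCm38.p6), where all 8 core genes were found.

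Counts were filtered with filterByExpr, scaled by TMM and tested with edgeR 4.0.16 (glmQLFit, glmQLFTest) in R 4.3.3. P-values were adjusted by Benjamini-Hochberg over all 14165 genes tested and read at 0.05. DESeq2 1.42.0 and limma-voom (limma 3.58.1) were alternatives, as were RLE scaling, no filter, an FPKM minimum of 1, a replicate block and each library left out. Libraries 1 and 2 or 2 and 4 without a block, and DESeq2 with each library left out, were added after seeing the data. Shares were tested by two-sided exact permutation.

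The members, gene lists and tests were chosen with earlier results of these data known. Named genes are the core genes, the 3 genes of each other role with the smallest p-value, Pik3ip1, Trib3, Pik3r2, Irs4, Igf1r, Insr and Gpr18, and for each core gene the gene with the most similar levels. Some genes and 1 share covered by this rule and these tests are not reported here. Pik3cg and single muscle marker genes were added after their values were seen, and so were Pik3cd, Pik3r3 and the motifs. On counts simulated from these libraries, edgeR recovered 66.0% of 4-fold and 17.3% of 2-fold changes with 5 false calls among 86, and DESeq2 recovered 76.0% and 42.0% with 87 false among 205. Library depth was 30917613 to 48756794 counts, and floors and intervals of counts cover counting error only.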

Additional observations from a re-analysis of the deposited data

How the results depend on the processing

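Under the alternatives run (other scaling, filters, limma-voom, DESeq2, a block, subsets of libraries, each library left out), Akt1, Akt2 and Pik3ca stayed lower and Pik3cb and Irs2 higher with PSB-KD107. Leaving out each library in turn moved the edgeR log2 fold change of Akt1 between -0.22 and -0.091, Akt2 between -0.30 and -0.091, Pik3ca between -0.23 and -0.024, Pik3cb between 0.30 and 0.66 (0.28 and 0.66 in DESeq2), Irs1 between 0.093 and 0.51, and Irs2 between 0.63 and 1.07. Direction turned for Pik3r1 (-0.072 to 0.23 in edgeR, -0.082 to 0.22 in DESeq2) and Pdpk1 (-0.21 to 0.12 and -0.22 to 0.12). With libraries 1 and 2 only and no block, Pik3r1 was -0.14 and Irs1 -0.054. Without a filter on low counts edgeR called 1 other pathway gene and 8 genes in all. DESeq2 called 0 core genes, 3 pathway genes and 410 in all, and with each library left out 0 to 1 core genes, 1 to 5 pathway genes and 160 to 768 in all. The core gene was Pik3cb (0.66) without PSB-KD107 library 1. edgeR called 0 genes in each of these leave-one-out fits.

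The library numbers were not accepted as a pairing, as the deviations of same-numbered libraries from their group means correlated at 0.63, 0.50 and -0.13 across genes, and vehicle library 4 correlated best with PSB-KD107 library 2. With the number as a block on libraries 1 and 2, edgeR called 1 core gene (Irs2, 0.98, adjusted p = 0.0127), 28 other pathway genes and 2456 genes in all (17.1%), and Pik3r1 was -0.12 and Irs1 -0.047. A block over all 6 libraries gave 0 calls in edgeR and, in DESeq2, 0 core genes, 4 pathway genes and 638 in all. The cause of these differences was not tested. With 3 libraries per group, 2-fold changes were mostly missed in simulated counts, so the absence of calls does not show equal levels.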

Other observations

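The genes whose log2 CPM followed a core gene most closely over the 6 libraries, among about 8909 genes with a mean of at least 10 CPM, were Ranbp3 for Akt1 (Pearson r = 0.994), Haghl for Akt2 (0.988), Arfgef1 for Pik3ca (0.998) and Mid2 for Pik3cb (0.973). They were Cyhr1 for Pik3r1 (0.984), Kcnj2 for Pdpk1 (0.998), Ank3 for Irs1 (0.995) and Rhod for Irs2 (0.986). With 6 libraries such values are common: 164 genes passed r = 0.95 for Akt1 and 275 for Pik3ca, against 12 for Pik3r1. Between core genes, Pik3ca and Pdpk1 were the most alike (0.89) and Akt1 and Irs1 the most opposed (-0.93) of 28 pairs. All are descriptions over the same 6 libraries, which differ in treatment and depth.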
